A study of Homo sapiens with 6 samples.

Results

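The intercellular adhesion molecules (ICAMs) and the integrin LFA-1 were examined in KMS27, an established human line of malignant plasma cells from multiple myeloma. The genes were chosen by name as the 5 ICAM genes ICAM1 to ICAM5 and both chains of LFA-1, ITGAL and ITGB2, which are 7 of the 63677 genes in the expression table. Each was found under 1 Ensembl gene ID, and its level was the sum over its annotated transcripts. The series compared 3 libraries from KMS27 cells whose treatment label is HA-TAZ with 3 libraries from KMS27 cells whose treatment label is wild type. Its stated aim was to see how the transcriptome changes when HA-TAZ is overexpressed. TAZ is a transcriptional coactivator encoded by WWTR1, and HA is a short peptide tag. The promoter of the construct, and whether the cells are 1 clone, are not given in the sources used here. Each wild type title includes the letters HA, and no label says whether these cells hold an HA construct. The 3 control columns carry a name that is in no label and were assigned to wild type because no other group was left, and they are given here as controls a, b and c. Where 3 values follow each other they are in the order HA-TAZ 1, 2 and 3 or controls a, b and c. No label says that the 3 libraries of a group came from separate cultures, so the spread between them, which is all that the p-values measure, may be technical.

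ICAMs are cell surface proteins of the immunoglobulin superfamily. They are the ligands of LFA-1, a heterodimer of an alpha chain (CD11a, from ITGAL) and a beta chain (CD18, from ITGB2), and the pair holds leukocytes to other leukocytes, to endothelium and to stromal cells. The beta chain is shared with other leukocyte integrins, and the alpha chain needs it to reach the cell surface. In most cells ICAM1 is induced by inflammatory cytokines through NF-kB and STAT factors, whereas ICAM2 is largely constitutive. In the bone marrow, adhesion of myeloma cells to stroma through such molecules is a known feature of the disease.

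In these libraries ICAM1 was the member with the largest difference in TPM, with a mean of 71.4 TPM in HA-TAZ and 16.7 TPM in wild type libraries, and it took the place of ICAM2 as the most abundant ICAM transcript. Its immediate neighbours on chromosome 19, ICAM4 and ICAM5, had scaled levels that overlapped between the groups. ITGAL was lower in HA-TAZ libraries, and ITGB2 was close to 0 in every library. The 7 genes were chosen with this contrast known, so their values are given as a description, with no p-value.

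The sequences before the transcription starts of the 3 adjacent genes ICAM1, ICAM4 and ICAM5 show how their promoters differ. They are the 250 bases before the start in RefSeq on build GRCh38.p14, all on the plus strand, 5′ to 3′, at chr19:10270870-10271119 for ICAM1, chr19:10286705-10286954 for ICAM4 and chr19:10289702-10289951 for ICAM5. Capitals mark matches to the searched motifs.
ICAM1: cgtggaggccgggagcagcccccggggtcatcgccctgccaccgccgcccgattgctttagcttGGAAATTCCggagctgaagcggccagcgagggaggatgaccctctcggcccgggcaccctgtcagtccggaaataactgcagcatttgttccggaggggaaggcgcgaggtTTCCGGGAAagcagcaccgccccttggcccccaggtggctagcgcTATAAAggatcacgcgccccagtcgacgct
ICAM4: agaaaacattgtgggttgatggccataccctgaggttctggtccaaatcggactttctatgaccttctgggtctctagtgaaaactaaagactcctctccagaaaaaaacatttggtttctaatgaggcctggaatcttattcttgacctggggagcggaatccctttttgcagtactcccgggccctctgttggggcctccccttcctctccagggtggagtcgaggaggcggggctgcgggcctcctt
ICAM5: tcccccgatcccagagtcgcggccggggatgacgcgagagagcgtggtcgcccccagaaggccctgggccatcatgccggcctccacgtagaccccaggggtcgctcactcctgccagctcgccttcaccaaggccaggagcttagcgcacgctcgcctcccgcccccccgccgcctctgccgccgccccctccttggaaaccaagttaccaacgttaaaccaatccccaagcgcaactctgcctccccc

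The capitals in the ICAM1 sequence mark 3 matches. GGAAATTCC, the letters of the kB site known from this promoter, lies 186 to 178 bases before the start and occurs in 0.413% of the 35116 RefSeq windows of the same length. TTCNNNGAA, the form of a GAS element to which STAT dimers bind, lies 75 to 67 bases before the start and occurs in 6.57% of windows. TATAAA, the core of a TATA box, lies 30 to 25 bases before the start and occurs in 10.7% of windows. The other motifs searched on both strands were the NF-kB consensus (5.21% of windows), the core of an interferon-stimulated response element (3.02%), TGANTCA for AP-1 (6.57%) and GGAATG for the TEAD factors through which TAZ acts (11.9%). None of these 4 was found in the 3 windows printed, and no searched motif was found in those of ICAM4 and ICAM5. No 2 matches overlapped. Among the 3 RefSeq windows of ICAM3, the one at chr19:10339625-10339874 on the minus strand holds a match to the TEAD letters, 219 to 214 bases before the start. RefSeq entries were found for 4 of the 7 members. A match is a description of letters, and binding was not measured here.

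The level of WWTR1 was 297 ± 7.42 TPM with HA-TAZ and 2.20 ± 0.497 TPM without it (SD, n = 3 each). TPM gives a transcript's part of all transcripts in a library, corrected for length, so it can be compared between genes, and it carries no read depth. The deposited TPM shifted the median gene to −0.27 on the log2 scale in HA-TAZ libraries, and libraries were therefore rescaled by median-of-ratios factors from 0.866 to 1.21, which put the median at −0.03. Log2 fold changes are on the scale of log2(scaled TPM + 1). Of 22651 genes with a mean of at least 1 TPM, 7.29% passed an adjusted p of 0.05 in limma (Benjamini-Hochberg), with 4.67% higher and 2.63% lower. A gene is called here when it passed. All 9 plasma cell marker genes had a mean of at least 1 TPM. Their sum as deposited was 2785 to 3217 TPM in HA-TAZ and 4270 to 4825 TPM in wild type libraries. Most of it was IGJ, with means of 2457 TPM in HA-TAZ and 3792 TPM in wild type libraries. After scaling, every HA-TAZ value lay below every control for IGJ and CD38 and above every control for SDC1, XBP1 and SLAMF7. The groups overlapped for PRDM1, IRF4, TNFRSF17 and MZB1, so the sum gives no direction for the markers as a set. Of 5 B cell, 5 T cell and 5 myeloid markers, 1 each reached a mean of 1 TPM. These were CR2 at 8.75 TPM, CD3G at 1.49 TPM and CSF1R at 1.68 TPM over the 6 libraries. Of 4 neuron markers 1 reached it, SYT1 at 7.03 TPM, and of 4 red cell markers none did. The T cell genes CD3D and CD2 and the B cell gene PAX5 were below 1 TPM in each library. None of 4 endothelial markers reached a mean of 1 TPM, with a sum of at most 0.156 TPM.

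ICAM1 (ENSG00000090339) encodes the main inducible ligand of LFA-1. Its levels were 70.5, 72.6 and 71.0 TPM in the HA-TAZ libraries against 16.9, 17.5 and 15.8 TPM in the controls. All HA-TAZ libraries lay far above all controls, and the spread within each group was small. The means were 71.4 ± 1.06 and 16.7 ± 0.841 TPM (SD, n = 3 each), a ratio of 4.27, which became 5.26 in scaled TPM. In the fit over all genes its log2 fold change was 2.32 (SE 0.06). Leaving out any 1 library moved it between 2.27 and 2.37.

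ICAM2 (ENSG00000108622) encodes a shorter ICAM found on resting leukocytes and endothelium. Its levels were 28.8, 29.7 and 27.5 TPM in the HA-TAZ libraries against 32.4, 31.8 and 34.1 TPM in the controls. The HA-TAZ libraries were lower as deposited, whereas the groups overlapped after scaling, with means of 31.6 ± 1.40 and 29.4 ± 2.73 scaled TPM (SD, n = 3 each). Its log2 fold change was 0.10 (SE 0.08) and turned to −0.19 with TPM as deposited, so no direction is read for ICAM2. The ratio of ICAM1 to ICAM2 within a library needs no scaling. It was 2.45, 2.44 and 2.58 in the HA-TAZ libraries and 0.520, 0.550 and 0.463 in the controls. ICAM1 thus exceeded ICAM2 in each HA-TAZ library and fell below it in each control.

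The other ICAM genes were low. ICAM3 (ENSG00000076662), a leukocyte ICAM that also binds the lectin DC-SIGN, was at 2.56, 3.15 and 3.13 TPM in HA-TAZ against 2.78, 3.11 and 3.75 TPM in control libraries. ICAM5 (ENSG00000105376), the neuronal ICAM called telencephalin, was at 4.05, 4.50 and 4.52 TPM in HA-TAZ against 5.49, 5.29 and 5.88 TPM in control libraries. ICAM4 (ENSG00000105371), which carries the LW blood group on red cells, was at 0.948, 1.07 and 0.527 TPM in HA-TAZ against 1.08, 0.920 and 0.990 TPM in control libraries. After scaling, the groups overlapped for each of these 3 genes. The log2 fold changes were 0.13 (SE 0.14) for ICAM3 and −0.04 (SE 0.09) for ICAM5, and with TPM as deposited they were −0.09 and −0.29. ICAM4 was below the filter on level, and HA-TAZ 3 held its lowest value.

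Summed over the 5 ICAM genes, the level was 108 ± 2.44 TPM in HA-TAZ against 59.3 ± 1.12 TPM in wild type libraries (SD, n = 3 each). ICAM1 made up 66.0 ± 0.592% of this sum in HA-TAZ and 28.2 ± 1.92% in wild type libraries, and ICAM2 made up 26.5 ± 0.625% and 55.3 ± 1.05% (SD, n = 3 each). The share of ICAM5 was 4.03 ± 0.225% and 9.37 ± 0.340% (SD, n = 3 each). A share also depends on the other genes in the sum, and the scaled levels of ICAM2 and ICAM5 overlapped between the groups.

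ITGAL (ENSG00000005844), the alpha chain of LFA-1, had 2.53, 2.22 and 2.77 TPM in the HA-TAZ libraries against 6.66, 5.36 and 4.11 TPM in the controls. Every HA-TAZ library lay below every control, as deposited and after scaling, and the controls spread widely. The means were 2.51 ± 0.272 and 5.37 ± 1.27 TPM (SD, n = 3 each), a ratio of 0.466, or 0.582 in scaled TPM. Its log2 fold change was −0.61 (SE 0.15), and −0.85 with TPM as deposited. Much of this difference lay in a non-coding transcript with few estimated counts, described below. ITGB2 (ENSG00000160255), the beta chain, had 0.373, 0.183 and 0.333 TPM in the HA-TAZ libraries against 0.130, 0.0457 and 0.0107 TPM in the controls. Although the HA-TAZ libraries were all higher, each value was under 1 TPM, and the authors' deposited table gave no statistics for any of its 24 transcripts. No fold is therefore given for ITGB2. Summed over all transcripts, ITGAL exceeded ITGB2 in each library, by 6.78 times in HA-TAZ 1 at the least. This sum counts the non-coding forms of ITGAL. Coding transcripts alone were at 1.02 TPM for ITGAL and 0.373 TPM for ITGB2 in HA-TAZ 1. Because total RNA of a culture was measured, fewer cells with a transcript and less of it per cell cannot be told apart.

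Of the 5 members above the filter, ICAM1 passed the threshold that 7.29% of all tested genes pass, and ICAM1 and ITGAL had groups that did not overlap in scaled TPM, as had 38.5% of all tested genes (20.2% higher, as ICAM1, and 18.3% lower, as ITGAL). With TPM as deposited, ICAM1 was higher without overlap, as were 4.41% of all tested genes, and ICAM2, ICAM5 and ITGAL were lower without overlap, as were 43.6%. There, ITGAL also passed the threshold, as it did when protein-coding genes alone were fitted. Since the contrast was known when the genes were chosen, nothing is read from these counts. In order of level, wild type libraries had ICAM2, ICAM1, ICAM5, ITGAL, ICAM3, ICAM4 and ITGB2, where ICAM5 and ITGAL overlapped. The HA-TAZ libraries had ICAM1, ICAM2, ICAM5, ICAM3, ITGAL, ICAM4 and ITGB2, where ICAM3 and ITGAL overlapped. The other neighbours in both orders did not overlap.

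**Figure D1:**
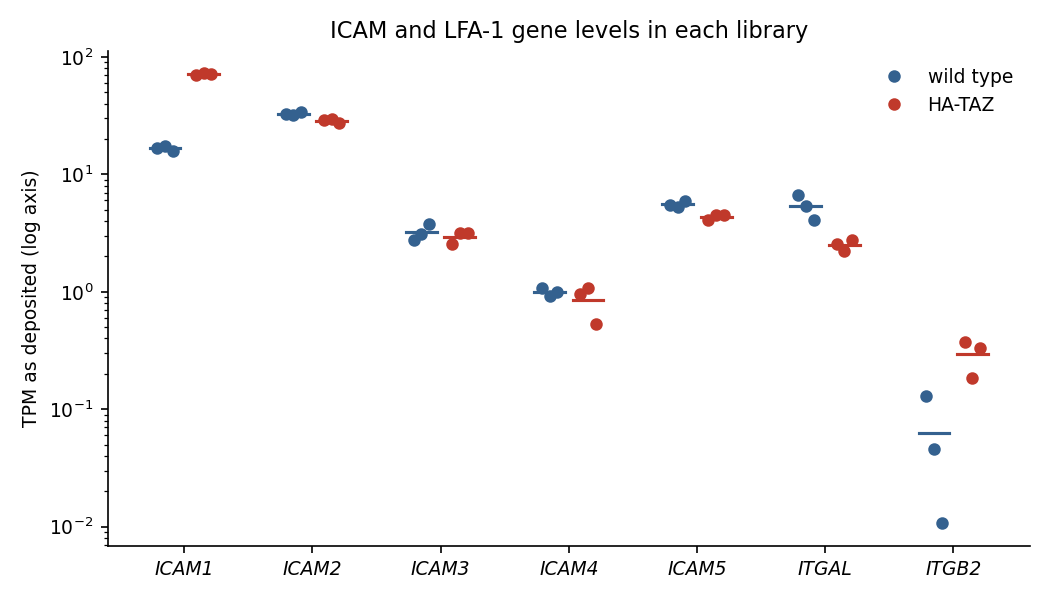
TPM as deposited on a log axis for the 7 genes, with a point for each library and a line for the mean of the 3 wild type (blue) or HA-TAZ (red) libraries. ICAM1 is at 16.7 TPM in wild type and 71.4 TPM in HA-TAZ libraries, on either side of ICAM2, ITGAL is lower in HA-TAZ libraries, and ITGB2 stays below 1 TPM.

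The difference in ICAM1 lay mostly in its main coding transcript. ENST00000264832.3 had 63.8, 64.99 and 64.9 TPM in the HA-TAZ libraries against 13.6, 13.8 and 13.2 TPM in the controls. It made up 90.4 ± 0.903% of ICAM1 in HA-TAZ and 81.0% in wild type libraries. A non-coding form, the processed transcript ENST00000585443.1, differed much less, with 3.02, 3.00 and 3.23 TPM against 2.95, 1.81 and 1.70 TPM. The retained-intron form ENST00000592686.1 was at 1.99, 1.98 and 0.783 TPM in HA-TAZ against 0.341, 0.434 and 0.932 TPM in control libraries, which overlapped. Another coding transcript, ENST00000423829.2, was at 1.59, 2.60 and 2.12 TPM in HA-TAZ libraries, at 1.42 TPM in control b and listed at 0 in the other controls. Summed over coding forms, the ratio of HA-TAZ to wild type was 4.77, and summed over the others it was 1.72.

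**Figure D2:**
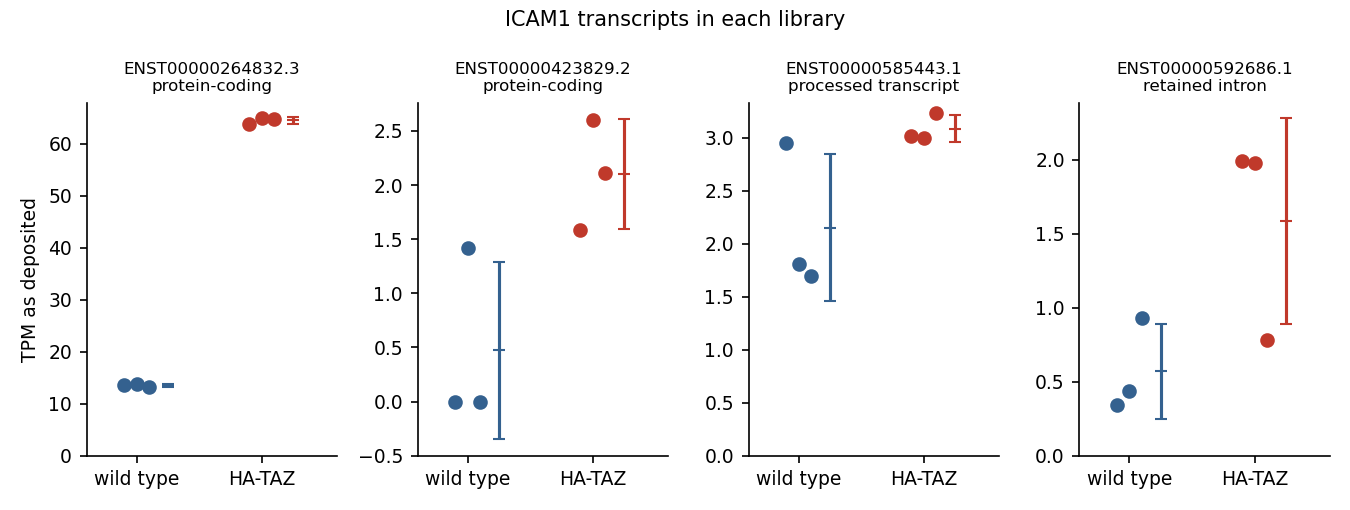
TPM as deposited of the 4 ICAM1 transcripts with a group mean of at least 1 TPM, with a point for each library and the mean ± SD of 3 libraries beside it, each panel on its own linear axis. The coding transcript ENST00000264832.3 accounts for nearly all of the difference between the groups.

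For ENST00000264832.3 the sleuth effect in the authors' deposited table was 1.79 in natural log units (SE 0.0524), at a mean that corresponds to 6033 estimated counts. For ENST00000585443.1 the authors' deposited table had 0.598 (SE 0.199) and the q-value 0.0481. Of the 83 transcripts of the 7 genes, the authors' deposited table held statistics for 33, and these 2 of ICAM1 were those with a q-value under 0.05. These values come from the same libraries as the TPM and are no separate support.

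For several members most of the TPM lay outside coding transcripts. Coding transcripts made up 93.5 ± 0.774% of ICAM1 in HA-TAZ libraries and 77.5 ± 2.87% of ICAM2. They made up 33.5 ± 6.87% of ICAM3, 26.5 ± 12.1% of ICAM5 and 42.1 ± 3.96% of ITGAL (SD, n = 3 each). In wild type libraries the shares were 83.7% for ICAM1, 74.5% for ICAM2, 41.5% for ICAM3, 22.2% for ICAM5 and 30.3% for ITGAL. The whole of ICAM4 lay in its 3 coding transcripts.

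In ICAM5 the largest form was the retained-intron transcript ENST00000588912.1, at 2.12, 2.18 and 1.97 TPM in HA-TAZ against 3.69, 3.48 and 3.62 TPM in control libraries. The coding forms of ICAM5 overlapped, with means of 1.18 ± 0.582 and 1.21 ± 0.493 TPM (SD, n = 3 each). In ICAM3 the retained-intron transcript ENST00000587992.1 led, at 1.65, 1.72 and 1.97 TPM in HA-TAZ against 1.39, 1.79 and 1.90 TPM in control libraries. In ICAM2 the coding transcript ENST00000579788.1 led, at 13.8, 12.8 and 9.92 TPM against 13.9, 15.8 and 13.9 TPM. The retained-intron transcript ENST00000583186.1 of ICAM2 was at 2.85 ± 0.255 TPM in HA-TAZ against 4.66 ± 0.280 TPM in wild type libraries (SD, n = 3 each). Thus 1 retained-intron form each of ICAM2 and ICAM5 was lower in HA-TAZ libraries without overlap, as deposited and after scaling. Of all tested genes, 43.6% were lower without overlap as deposited and 18.3% after scaling, so nothing is read from this. These shares are over genes, and no such share was computed over transcripts. The sleuth q-values in the authors' deposited table were 0.280 for ENST00000583186.1 and 0.208 for ENST00000588912.1. Another such form of ICAM2, ENST00000580011.1, overlapped at 1.32 ± 0.0912 and 1.499 ± 0.375 TPM, as did ENST00000586480.1 of ICAM5 at 1.07 ± 0.242 and 0.743 ± 0.745 TPM (SD, n = 3 each).

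The difference in ITGAL was larger in its non-coding forms. Its coding transcripts summed to 1.02, 1.04 and 1.09 TPM in the HA-TAZ libraries and 1.56, 1.41 and 1.69 TPM in the controls, a ratio of 0.676 as deposited and 0.832 in scaled TPM. Its other transcripts summed to 1.46 ± 0.249 TPM in HA-TAZ against 3.82 ± 1.35 TPM in wild type libraries (SD, n = 3 each), a ratio of 0.381. Much of this was the processed transcript ENST00000566267.1, at 0.719, 0.290 and 0.0841 TPM in HA-TAZ against 2.89, 2.16 and 0.708 TPM in control libraries, where control c overlapped with HA-TAZ 1. The main coding transcript, ENST00000356798.6, was at 0.747, 0.648 and 0.779 TPM against 1.45, 1.14 and 1.14 TPM. In the authors' deposited table the mean of ENST00000356798.6 corresponds to 318 estimated counts, with a sleuth q-value of 0.160. That of ENST00000566267.1 corresponds to 15.4 estimated counts, with a sleuth q-value of 0.263. The larger difference in non-coding forms thus rests much on a transcript with few counts.

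**Figure D3:**
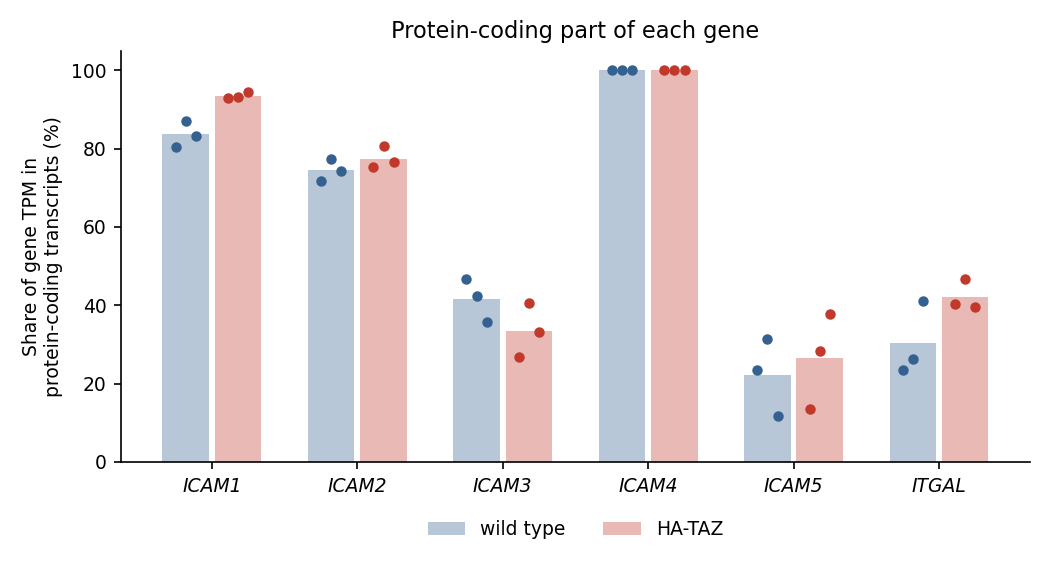
Share of each gene's TPM in protein-coding transcripts, as bars for the mean of 3 libraries and points for each library, for wild type (blue) and HA-TAZ (red). The shares are above 70% for ICAM1, ICAM2 and ICAM4 and below 50% for ICAM3, ICAM5 and ITGAL, and ITGB2 is left out because its level is near 0.

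In GENCODE release 29, ICAM1, ICAM4 and ICAM5 lie one after the other on the same strand of chromosome 19, with 351 bases between ICAM1 and ICAM4 and 1458 bases between ICAM4 and ICAM5. ICAM3 lies on the other strand behind ZGLP1, FDX1L and RAVER1. Of 10 neighbouring genes, 3 were called higher, 0 lower and 7 were not called, with a median log2 fold change of 0.36 (limma, Benjamini-Hochberg, beside 4.67% called higher over all genes). MRPL4, which encodes a mitochondrial ribosomal protein and lies before ICAM1, rose by 0.36 on the log2 scale (adjusted p = 0.0444, limma). CDC37, a cochaperone of kinases, rose by 0.38 (0.0416), and TYK2, a kinase of interferon receptors, rose by 0.35 (0.0491). All 3 calls were lost with TPM as deposited, where the log2 fold changes were 0.07, 0.08 and 0.05.

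The other neighbours did not pass the threshold. The log2 fold changes were 0.51 for RAVER1, 0.44 for KEAP1, 0.44 for FDX1L, 0.23 for S1PR2 and 0.03 for ZGLP1. They were −0.18 for DNMT1, the maintenance DNA methyltransferase, and −0.26 for PDE4A, a cyclic AMP phosphodiesterase. With TPM as deposited, S1PR2 and ZGLP1 turned negative, and PDE4A was called lower. When protein-coding genes alone were fitted, 6 neighbours were called higher, with RAVER1, KEAP1 and FDX1L added, and PDE4A was called lower. In that fit 2746 of 11666 tested genes were called, 51.9% of them higher. With no filter, or without the trend, no neighbour was called, and leaving out a library left at most 1. None of the 10 came near the 2.32 of ICAM1.

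**Figure D4:**
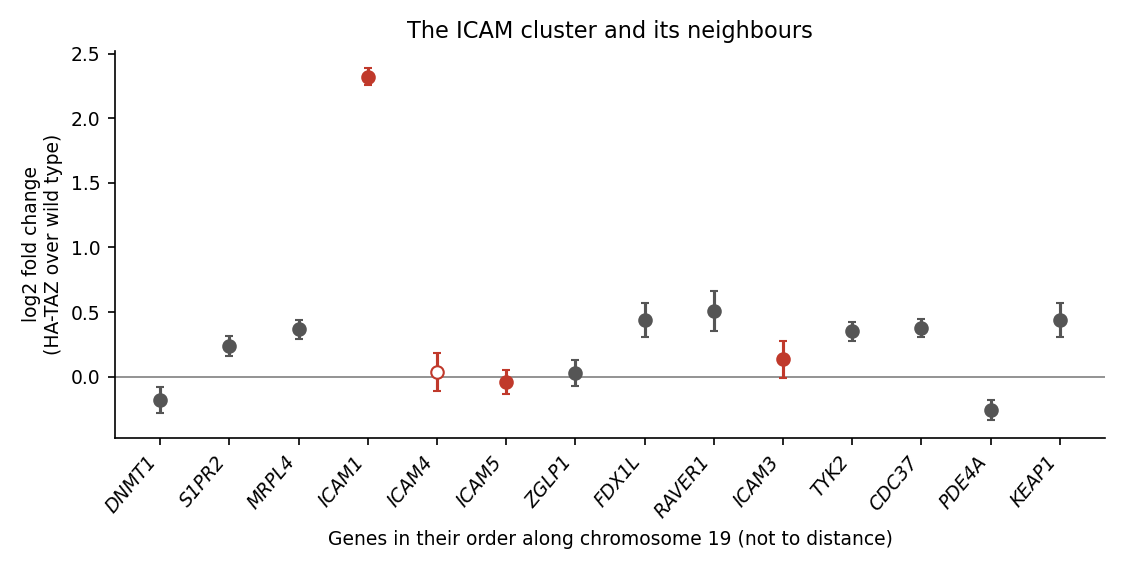
Log2 fold change of HA-TAZ over wild type ± SE for ICAM genes (red) and neighbouring genes (grey) in their order along chromosome 19, from 3 libraries per group. ICAM4 (open) was below the filter and is drawn from the fit with no filter. ICAM1 stands at 2.32, and every other gene lies between −0.26 and 0.51.

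Some genes overlap a member on the opposite strand. The library kit marks the strand, but use of the strand in quantification is not given in the sources used here. CTD-2369P2.8, an antisense gene that overlaps ICAM1 and ICAM4, was at 0.619 ± 0.162 TPM in HA-TAZ against 0.409 ± 0.0995 TPM in wild type libraries (SD, n = 3 each). CTD-2369P2.5, antisense to ICAM1, was at 0.481 ± 0.326 and 0.299 ± 0.121 TPM (SD, n = 3 each). Both were far below ICAM1, and for both the groups overlapped as deposited. After scaling, CTD-2369P2.8 was higher in HA-TAZ libraries without overlap, as were 20.2% of all tested genes. ITGB2-AS1 was at 0.255 ± 0.0451 TPM in HA-TAZ against 0.420 ± 0.0685 TPM in wild type libraries (SD, n = 3 each), below 1 TPM like ITGB2. RP11-297C4.3, antisense to ITGAL, was at 5.42 ± 0.302 and 7.33 ± 0.981 TPM (SD, n = 3 each), above ITGAL, and its part in the values of ITGAL was not tested. After scaling, the groups overlapped for ITGB2-AS1 and for RP11-297C4.3. RP11-297C4.3 was not called (log2 fold change −0.11, limma, adjusted p = 0.515).

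The other alpha chains that pair with ITGB2 were low too, with no group mean above 2 TPM. ITGAM, the alpha chain of Mac-1, was at 0.803, 1.63 and 1.20 TPM in HA-TAZ against 0.478, 0.626 and 0.808 TPM in control libraries. ITGAX was at 0.947, 0.840 and 1.08 TPM against 0.711, 0.635 and 0.545 TPM. Both were below the filter. ITGAD had means of 1.24 ± 0.333 and 1.82 ± 0.0562 TPM (SD, n = 3 each) and was not called (log2 fold change −0.16, limma, Benjamini-Hochberg adjusted p = 0.472).

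Genes that regulate the change of LFA-1 from its bent to its extended form were mostly expressed and mostly did not pass the threshold. The list mixes activators and inhibitors of this change, so its median has no direction for LFA-1 activity. Of 20 such genes, 17 passed the filter on level, with 1 called higher, 0 called lower and a median log2 fold change of 0.14, beside −0.03 over all genes. The called gene was FERMT3, which encodes kindlin-3, the adaptor that binds the tail of the beta chain in blood cells. Its levels were 4.34, 4.96 and 4.48 TPM in HA-TAZ against 2.86, 3.89 and 3.22 TPM in control libraries, and its log2 fold change of 0.61 (SE 0.13) had an adjusted p of 0.0483 in limma. The call held in 2 of the 11 alternatives in which FERMT3 was tested.

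A further list held 12 genes that tie ICAM tails and integrins to actin or regulate actin, with a median log2 fold change of 0.06. Of the 12, 3 were called higher, beside 4.67% over all genes, 0 lower and 9 were not called. FLNA, which encodes filamin A, a crosslinker of actin, rose by 0.52 on the log2 scale, from 136 ± 4.004 to 196 ± 10.5 scaled TPM (SD, n = 3 each; limma, adjusted p = 0.0114), and had 0.22 with TPM as deposited, where it was not called. FLNA is listed under 2 gene IDs, between which reads can be split, so its level is uncertain. EZR, which encodes ezrin, a linker of ICAM tails to actin, rose by 0.33 (adjusted p = 0.0370, limma). With TPM as deposited none of the 3 was called, and 2 other genes of this list were called lower.

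Of 15 other adhesion molecules, 10 passed the filter, with a median log2 fold change of 0.04. Of these 10, 3 were called higher, beside 4.67% over all genes, and 0 lower. MCAM, an immunoglobulin superfamily adhesion molecule also known as CD146, was at 19.1, 19.5 and 19.2 TPM in HA-TAZ against 8.93, 9.48 and 11.3 TPM in control libraries. All HA-TAZ libraries lay above all controls, and the log2 fold change was 1.18 (SE 0.13, limma, adjusted p = 0.0132). ALCAM, the ligand of CD6, rose by 0.58 (adjusted p = 0.0238, limma), and CD47, which signals to phagocytes, rose by 0.35 (0.0271). Of these, MCAM kept its call with TPM as deposited, and it was called in 8 of 12 alternatives.

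Of 5 other receptors that bind ICAMs, 2 passed the filter and 1 was called. MUC1, a transmembrane mucin that binds ICAM1, had 30.6, 27.1 and 31.1 TPM in the HA-TAZ libraries against 4.88, 7.68 and 8.15 TPM in the controls. The groups were far apart, with means of 29.6 ± 2.21 and 6.90 ± 1.77 TPM (SD, n = 3 each) and a log2 fold change of 2.25 (SE 0.23), for which limma gave an adjusted p of 0.0114. The adjusted p ranged from 2.36e-04 to 0.0617 over the 12 alternatives and the call held in 10 of them. SPN, which encodes the sialomucin CD43, was the other gene tested and was not called.

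Several genes of transcription factors known to act on ICAM1 were higher in HA-TAZ libraries. Of 14 such genes, all tested, 8 were called higher, 0 lower and 6 were not called, beside 4.67% called higher over all genes. The median log2 fold change was 0.54, beside −0.03 over all genes. With TPM as deposited this median was 0.27, beside −0.27 over all genes. When protein-coding genes alone were fitted, 9 of the 14 were called higher, beside 2746 of 11666 genes called in either direction. No test compares this list with other genes, and the list was chosen with earlier results of these data known. IRF1, an interferon-induced activator, was at 42.8, 42.9 and 43.3 TPM in HA-TAZ against 26.7, 25.2 and 24.8 TPM in control libraries, a log2 fold change of 1.02 (SE 0.06, limma, adjusted p = 0.00243). RELB, the NF-kB subunit of the non-canonical pathway, was at 27.2, 26.7 and 27.8 TPM against 13.0, 14.7 and 14.99 TPM, a log2 fold change of 1.18 (SE 0.11, limma, adjusted p = 0.0106). Both genes separated the groups without overlap.

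JUN, a part of AP-1, rose by 1.04 on the log2 scale (limma, adjusted p = 0.00610) and FOS, its partner, by 0.82 (0.0350). NFKB2, the partner of RELB, rose by 0.63 (0.0250). IRF1 and JUN were called in all 12 alternatives, RELB in 11, NFKB2 in 7 and FOS in 4. The call of FOS was lost with TPM as deposited and whichever library was left out. Without HA-TAZ 1, IRF1 and JUN were the 2 genes of the list still called. With TPM as deposited 5 were called higher. RELA, the main activating subunit of canonical NF-kB, was not called, with a log2 fold change of 0.09 (limma, adjusted p = 0.446).

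Receptors whose signals induce ICAM1 and proteases that shed its ectodomain were mostly not called. Of 10 receptors, 8 passed the filter, with 1 called higher, 0 lower and a median log2 fold change of 0.10. The called gene was IFNGR2, a chain of the interferon gamma receptor, which rose by 0.50 (limma, adjusted p = 0.0363). The call held in 4 of 12 alternatives and was lost with TPM as deposited, with no filter and whichever library was left out, with adjusted p from 0.00904 to 0.163 over the 12. IFNGR2 too is listed under 2 gene IDs, and its level is uncertain. Of 7 proteases, 3 passed the filter on level and none of these passed the threshold in limma, whereas 1 was called lower with TPM as deposited, with protein-coding genes alone and at a mean of at least 5 TPM. ADAM10, a sheddase of many surface proteins, had a log2 fold change of −0.31 (adjusted p = 0.0605, limma). ADAM17, a sheddase of ICAM1, was at 0.01 (0.954), and MMP14, a membrane-bound metalloproteinase, at 0.04 (0.885).

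**Figure D5:**
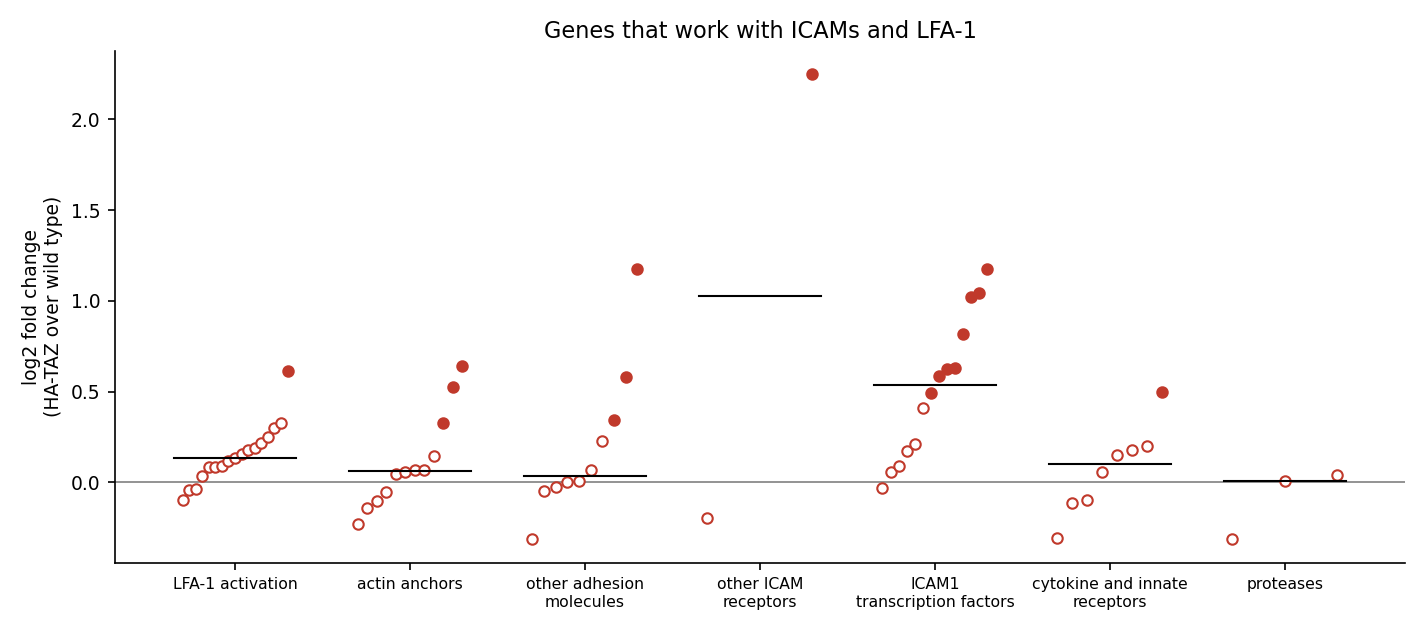
Log2 fold change of HA-TAZ over wild type for each tested gene of 7 lists, filled where called (limma, Benjamini-Hochberg adjusted p under 0.05) and open otherwise, with a line at the list's median, from 3 libraries per group. Filled points lie above 0 in every list that has them, and MUC1 is the highest at 2.25.

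Over all 9 lists, 20 of the 77 tested genes were called, all higher, beside 7.29% of all tested genes. Of the 22651 genes behind that share, only 11666 are protein-coding. When these alone were fitted, 2746 of the 11666 were called, beside 29 of the 77, with 86.2% of the 29 higher. At a mean of at least 5 TPM, 1861 of 12613 genes were called, beside 16 of 55 in the lists. Nothing is therefore read from the count over the lists. That count was 11 with TPM as deposited, 7 higher and 4 lower, and 7 of the 20 kept their call there. All 20 kept a positive log2 fold change under that setting. Without HA-TAZ 1 the count fell to 2, and it was between 4 and 9 when each of the other libraries was left out in turn.

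Protein-coding genes whose pattern over the 6 libraries was most like that of ICAM1 were ranked by Pearson correlation on log2(scaled TPM + 1). The 5 highest of 11665 were MAPKAPK2, SGPP2, HSPA6, P4HA2 and TRAF1, each with a correlation of at least 0.9986. The libraries fall into 2 groups, so the measure mostly states a difference between the groups with little spread within them, and it says nothing on the size of the difference. MAPKAPK2 had scaled means of 37.7 ± 0.556 and 22.0 ± 0.742 TPM (SD, n = 3 each). TRAF1, an adaptor of TNF receptors, had the largest log2 fold change of the 5, at 3.79, 4.43 and 4.24 TPM in HA-TAZ against 0.452, 0.506 and 0.419 TPM in control libraries. The log2 fold changes of the 5 ran from 0.75 to 1.98.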

How the data were processed

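Total RNA of KMS27 cells, depleted of ribosomal RNA, was sequenced from both ends in 6 libraries, per the labels' protocols. The submitters' processing notes name kallisto 0.46.0, sleuth 0.30.0 and build GRCh37. The annotation release is not given in the sources used here. The authors deposited TPM for 215170 transcripts. Their deposited comparison holds p-values and q-values and an effect, its standard error and a mean. These deposited values were taken as natural log values, the usual scale of sleuth, since no header names the scale, and the effect printed for ICAM1 is near the natural log of its scaled ratio. Each TPM column sums to the same total, so the depth of a library is unknown and precision was judged from 3 libraries per group.

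TPM was summed per Ensembl gene ID. Genes with a mean of at least 1 TPM were tested, after division by median-of-ratios factors over 21512 genes, by two-sided limma tests on log2(scaled TPM + 1) with a trend for level, adjusted by Benjamini-Hochberg over all tested genes, with a threshold of 0.05. Members stayed in the fit over all genes, and their p-values are not given. The fit was also run on simulated data with equal numbers of genes shifted up and down, which cannot test the scaling of these libraries. Where a symbol had several IDs, the one in GENCODE release 29 was used, except that cell type markers were summed over all their IDs. Transcript types came from GENCODE release 29 (GRCh38) and promoters from RefSeq (GRCh38.p14). Named genes were the 7 members, WWTR1, member transcripts with a group mean of at least 1 TPM, at most 6 called genes per list by size of change, all other beta 2 alpha chains and locus neighbours, and the 5 genes most like ICAM1. Other genes named (RELA, SPN, ADAM10, ADAM17, MMP14 and overlapping antisense genes) were chosen after their values were seen. Some genes that the rule names are not reported here. The members and lists were chosen with earlier results of these data known. Alternatives were other scalings, filters and pseudocounts, no trend, and leaving out each library. The fits used limma 3.58.1 under R 4.3.3. Tables and figures used pandas 2.3.3, numpy 2.4.6 and, for drawing, matplotlib 3.10.9 under Python 3.11.15.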

Additional observations from a re-analysis of the deposited data

How the results depend on the processing

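ICAM1 stayed higher in HA-TAZ libraries under each alternative run, with a log2 fold change of 2.03 with TPM as deposited and 2.25 to 2.39 under the other settings with all libraries. ICAM2 turned from 0.10 to −0.19 and ICAM3 from 0.13 to −0.091 with TPM as deposited, where ICAM5 moved to −0.29 and ITGAL to −0.85. Scaling divides each library by a factor, which moves all genes of that library together. It takes the median gene as unchanged, which was not tested. Leaving out libraries in turn, the log2 fold change ran from 2.27 to 2.37 for ICAM1, 0.04 to 0.17 for ICAM2, 0.02 to 0.25 for ICAM3, −0.10 to 0.027 for ICAM5 (positive without control c) and −0.72 to −0.51 for ITGAL. ICAM4 passed the filter without HA-TAZ 3 alone, at 0.16, against 0.04 with no filter. S1PR2 became −0.039 with TPM as deposited, and ZGLP1 −0.14 there and −0.013 when protein-coding genes alone were fitted.

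The 1652 called genes (64.0% higher) became 3329 with TPM as deposited (7.84% higher), 2746 when fitted on protein-coding genes alone (51.9% higher), 697 with no filter (78.9% higher) and 758 without trend (60.8% higher), and the authors' deposited table had 6220 transcripts with a q-value under 0.05 (71.9% higher). At a mean TPM of at least 5 there were 1861, 50.7% of them higher. Without one library they ranged from 118 to 470. The 20 called genes of the lists became 11 with TPM as deposited, 29 when protein-coding genes alone were fitted and 12 with no filter. At a mean TPM of at least 5 there were 16. They numbered 2 without HA-TAZ 1, 5 without HA-TAZ 2, 4 without HA-TAZ 3, 9 without control a, 4 without control b and 7 without control c. Fewer libraries entered these last fits, and for the moves other than those made by scaling the cause was not tested. No paired analysis was possible because the labels do not say which wild type sample each control column holds, nor that a number marks a shared batch.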
